A study of Mus musculus with 6 samples.

Results

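The genes described here are the interleukins, their receptors and their decoys, taken as every gene of the deposited table whose symbol begins with Il followed by a digit. There were 63 of them among 29734 genes: 22 ligands, 35 receptor chains, 4 antagonists, decoy receptors or binding proteins, and 2 that are neither, the enzyme gene Il4i1 and the antisense transcript Il1bos. Poly(A)-selected liver RNA was sequenced from male mice that were put on a Western diet at 8 weeks of age and kept on it for 20 weeks. The Prdx1 C52S group (3 libraries, numbered 1, 2 and 4) had a variant of the peroxiredoxin 1 gene with serine at residue 52, a cysteine in the wild type. The WT group (3 libraries, numbered 6, 8 and 9) had the wild-type gene. Every library came from the diet, so that no library shows the level of these genes without it. The labels do not say whether the allele was present on both chromosomes, which cells carried it, or whether each library is a separate animal, so the p-values below measure the spread between these libraries only.

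Interleukins are secreted messengers, mostly of immune cells, and most act through receptors built from a chain that binds the ligand and a chain that is often shared with other ligands. Receptors of the IL-1 family signal through MyD88 and IRAK kinases, whereas most others signal through JAK kinases and STAT transcription factors. Several systems have brakes: a receptor antagonist (Il1rn) that occupies the receptor without signalling, decoy receptors (Il1r2, Il13ra2) that bind ligand without signalling, and a soluble binding protein (Il18bp). In liver, hepatocytes respond to IL-6 and IL-1 with acute phase proteins, and Kupffer cells and recruited leukocytes are main sources of the ligands.

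Library totals lay between 60.3 and 76.2 M estimated counts, of which about 4 stand for 1 sequenced fragment. Hepatocyte markers were abundant in every library, with a summed level of 31100 to 33700 FPKM (fragments per kilobase of transcript, scaled to library size) in Prdx1 C52S and 27800 to 30400 FPKM in WT for 10 of 10 genes. Prdx1 itself lay at 261, 238 and 242 FPKM in Prdx1 C52S 1, 2 and 4 and at 236, 232 and 270 FPKM in WT 6, 8 and 9, and this level does not check the genotype, since a substitution leaves the transcript in place. WT 8 stood apart in bile duct transcripts: the summed level of 10 of 10 bile duct genes was 866 FPKM in WT 8, 233 and 363 FPKM in the other WT libraries, and 64 to 134 FPKM in Prdx1 C52S. Most of this sum was Spp1, at 736 FPKM in WT 8, 342 and 220 FPKM in WT 6 and WT 9, and 60.1 to 125 FPKM in Prdx1 C52S. The other bile duct genes were also highest in WT 8. Among them Epcam was at 39.7 FPKM in WT 8, 6.99 and 4.37 FPKM in WT 6 and WT 9, and 1.16 to 2.77 FPKM in Prdx1 C52S. WT 8 was also low in Kupffer cell genes (102 FPKM over 8 of 8 genes, beside 298 and 341 FPKM in the other WT libraries and 213 to 264 FPKM in Prdx1 C52S). Some of the results that depend on this library, but not all, are given with and without it.

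Most tested interleukin genes had lower values in the Prdx1 C52S livers, and the IL-1 system departed from this in part. The receptor gene Il1r1 was at 4 ± 0.437 FPKM in Prdx1 C52S and 11.7 ± 3.83 FPKM in WT (mean ± SD, n = 3 each), and the antagonist Il1rn at 1.48 ± 0.146 against 3.5 ± 0.551 FPKM, while Il1rap, the chain with which Il1r1 forms its signalling receptor, was higher, at 10.3 ± 0.902 against 7.34 ± 0.918 FPKM. A filter on low counts left 50 of the 63 genes for testing. Of these 50, 40 had a negative and 10 a positive log2 fold change (Prdx1 C52S minus WT, edgeR with TMM scaling). The median over the 50 was -0.62, beside -0.03 over all 18931 genes tested. Without WT 8 it was -0.47, beside -0.01 over all genes. With all libraries none of the 50 passed an adjusted p of 0.05 in edgeR's quasi-likelihood test. The smallest was 0.0587 for Il1rn, and the same test called 0 of all genes. At an unadjusted p under 0.05, 20 were lower (40.0%, beside 14.8% of all genes tested) and 2 were higher (4.0%, beside 11.5%). DESeq2 on the same counts put 11 members lower and 2 higher at an adjusted p under 0.05, beside 9.10% and 7.39% of all genes. The groups did not overlap in TMM-scaled values for 21 members that were lower (42.0%, beside 18.0% of all genes) and 3 that were higher (6.00%, beside 16.9%). Since members that are low in both groups could not enter the test, these shares describe the 50 tested genes and not all 63. In whole liver RNA, fewer cells of a type and less RNA per cell cannot be told apart.

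The scale bears on these directions. With library totals in place of TMM factors the median log2 fold change was -0.34 over all genes and -0.94 over the members. At that scale 29 members were lower at an unadjusted p under 0.05 (30.4% of all genes were) and 1 was higher (3.73% were). On the FPKM scale 31 of the 50 genes lay wholly below WT (36.7% of all genes did) and 1 wholly above (6.09% did), Il1rap.

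**Figure D1:**
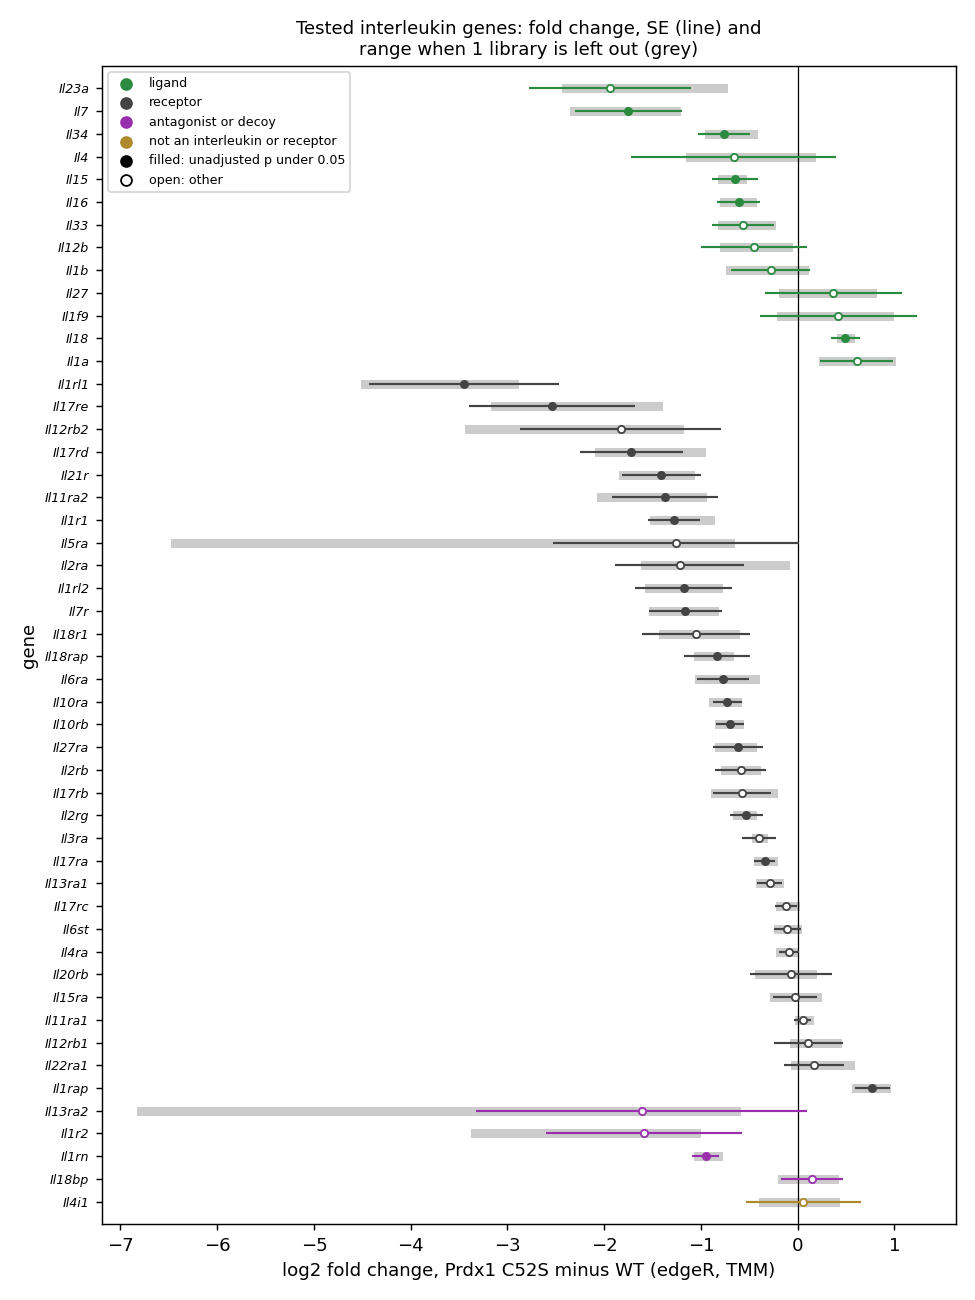
Log2 fold changes (x axis, Prdx1 C52S minus WT) of the 50 tested interleukin genes (y axis), ordered within ligands, receptors, antagonists or decoys, and the remaining gene. Points are edgeR estimates with their SE, filled where the unadjusted p is under 0.05, and grey bars give the range when 1 library is left out; 40 points lie left of 0, and Il1rap and Il18 are the 2 filled points to its right.

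The IL-1 system was examined at the upstream sequence as well, because its chains Il1r1 and Il1rap differed in opposite directions. Il1r1 starts on chromosome 1 at 40225080 and Il1rap on chromosome 16 at 26581704, both on the plus strand of GRCm38, and Il1rn on chromosome 2 at 24336853 on the plus strand. The 250 bases before the RefSeq start nearest to each (GRCm38.p6) are printed with CG dinucleotides in capitals.
Il1r1, chr1:40224830-40225079: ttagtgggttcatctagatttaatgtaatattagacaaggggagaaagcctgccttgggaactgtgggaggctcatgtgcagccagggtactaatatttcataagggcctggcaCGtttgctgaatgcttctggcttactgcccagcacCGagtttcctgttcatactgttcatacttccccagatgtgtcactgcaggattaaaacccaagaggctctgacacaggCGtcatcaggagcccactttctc
Il1rap, chr16:26581455-26581704: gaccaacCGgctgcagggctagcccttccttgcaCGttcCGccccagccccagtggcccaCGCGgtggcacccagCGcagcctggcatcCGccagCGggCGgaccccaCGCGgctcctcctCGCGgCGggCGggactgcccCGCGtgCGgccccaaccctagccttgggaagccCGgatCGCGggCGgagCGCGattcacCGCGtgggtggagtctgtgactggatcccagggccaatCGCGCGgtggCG
Il1rn, chr2:24336610-24336859: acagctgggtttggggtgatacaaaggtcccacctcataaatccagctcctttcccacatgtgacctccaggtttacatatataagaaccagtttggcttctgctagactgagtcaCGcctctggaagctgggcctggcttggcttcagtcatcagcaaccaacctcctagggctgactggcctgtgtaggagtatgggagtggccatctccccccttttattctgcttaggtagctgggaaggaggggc
The Il1rap window holds 30 CG dinucleotides, against 3 for Il1r1 and 1 for Il1rn. The median is 6 over 32851 RefSeq windows of this length (quartiles 2 and 16) and 3 over the 50 members that had a window. Other members differed from these 3: the window of Il18, which was higher like Il1rap, holds 1 CG. Those of Il17rb and Il6ra, with negative log2 fold changes, hold 27 and 18. A relation of CG content to direction was not tested. On both strands, the STAT letters TTCNNNGAA were found in 6 of the 50 member windows (7.02% of all windows), the PU.1 letters GAGGAAGT in 2 (2.44% of all windows) and 1 full NF-kB consensus in 0 (0.14% of all windows), and none of them lies in the 3 windows above. These 50 members are not the 50 tested genes, since Il10ra, Il10rb and Il17ra have no window while the untested Il11 and Il21 have one. Some windows lie far from the deposited gene start. Among those with a match, the distance was 12014 bases for Il1r2, 13698 for Il31ra and 19901 for Il4i1. The Il18rap window, from a receptor gene of the same chromosome 1 cluster as Il1r1, holds the PU.1 letters, shown in capitals.
Il18rap, chr1:40515112-40515361: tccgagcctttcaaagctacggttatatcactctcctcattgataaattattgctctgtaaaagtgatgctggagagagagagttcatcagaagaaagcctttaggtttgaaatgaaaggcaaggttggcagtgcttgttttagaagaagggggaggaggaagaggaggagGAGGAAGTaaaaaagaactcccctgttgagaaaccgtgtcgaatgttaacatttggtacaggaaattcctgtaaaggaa
These matches describe letters only, and the data hold no measurement of binding.

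Il1r1, the receptor of IL-1 alpha and IL-1 beta, lay at 4.08, 3.52 and 4.39 FPKM in Prdx1 C52S 1, 2 and 4 and at 16.1, 9.57 and 9.39 FPKM in WT 6, 8 and 9. Each WT library was above each Prdx1 C52S library, with WT 6 the highest. This gave a log2 fold change of -1.28 (SE 0.27, adjusted p = 0.0803), -1.48 with an adjusted p of 0.0315 when WT 8 was left out, and -0.91 when WT 6 was left out. Il1rap was at 9.51, 11.3 and 10.2 FPKM in Prdx1 C52S and at 8.25, 6.41 and 7.36 FPKM in WT, and the groups did not overlap. On the log2 scale the difference was 0.77 (SE 0.18, adjusted p = 0.0875). It was 0.60 with an adjusted p = 0.0319 without WT 8, and 0.49 with library totals only. Without WT 8, edgeR put 3 members lower, Il1r1, Il1rn and Il6ra, beside 1.94% of all genes, and 1 higher, Il1rap, beside 2.70%.

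Il1rn, which encodes the IL-1 receptor antagonist, was at 1.54, 1.31 and 1.58 FPKM in Prdx1 C52S and at 2.86, 3.86 and 3.77 FPKM in WT. The highest Prdx1 C52S value was well below the lowest WT value. This gave a log2 fold change of -0.95 (SE 0.14, adjusted p = 0.0587), and it ran from -1.03 to -0.82 when 1 library was left out. The decoy Il1r2 was scarce, at 0.106, 0.0235 and 0 FPKM in Prdx1 C52S and 0.174, 0.134 and 0.193 FPKM in WT, and its log2 fold change of -1.59 (SE 1.01) did not pass. The size of the Il1r2 fold change depended on Prdx1 C52S 1, without which it was -3.33.

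The ligands of this receptor showed no such separation in FPKM. Il1a was at 3.59, 3.52 and 3.7 FPKM in Prdx1 C52S and at 3.02, 1.51 and 3.84 FPKM in WT, overlapping on the FPKM scale and wholly higher in Prdx1 C52S after TMM scaling. On the log2 scale the difference was 0.61 (SE 0.38, adjusted p = 0.342), and 0.26 without WT 8, the library with the lowest value. Il1b was at 3.43, 1.37 and 1.95 FPKM in Prdx1 C52S and at 2.95, 2.37 and 4.43 FPKM in WT, with a wide spread in both groups. The difference in Il1b was smaller than that spread (log2 fold change -0.28, SE 0.41), and it was 0.07 without WT 9. The antisense transcript Il1bos, which overlaps Il1b, reached at most 0.0237 FPKM. The Il1rn to Il1b ratio overlapped between the groups: log2 ratios of FPKM were -1.13, -0.06 and -0.30 in Prdx1 C52S and -0.04, 0.69 and -0.23 in WT, a difference of -0.63 (exact two-sided permutation p = 0.2).

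**Figure D2:**
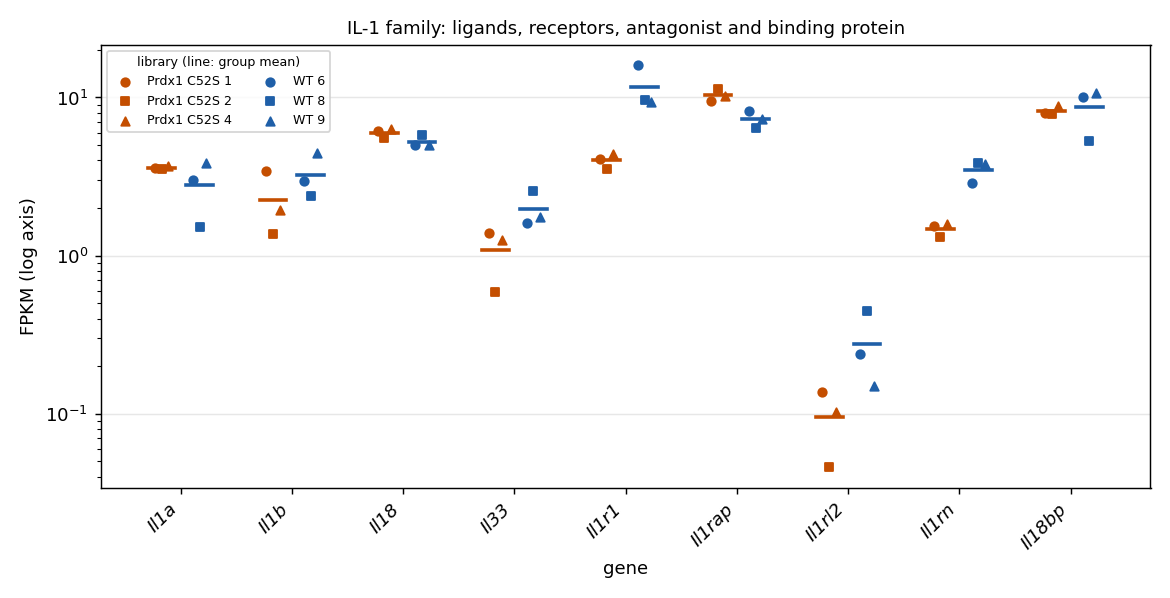
FPKM (y axis, log scale) of 9 IL-1 family genes (x axis) in each library; orange points are Prdx1 C52S, blue points WT, and lines are group means. Il1r1 and Il1rn lie lower in all 3 Prdx1 C52S libraries than in any WT library, Il1rap lies higher, and Il1a, Il1b, Il18 and Il18bp overlap.

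Il18, the ligand that caspase 1 matures, was at 6.16, 5.51 and 6.34 FPKM in Prdx1 C52S and at 5.01, 5.76 and 4.99 FPKM in WT. WT 8 exceeded Prdx1 C52S 2 on that scale, while in TMM-scaled values each Prdx1 C52S library was above each WT library. This gave a log2 fold change of 0.49 (SE 0.15, adjusted p = 0.114), 0.45 without WT 8 and 0.18 with library totals only, and DESeq2 gave an adjusted p of 0.0129. Il18 overlaps Bco2 and Tex12 on the other strand, and whether counting used the strand is not given in the sources used here. Its soluble inhibitor Il18bp was at 7.93, 7.82 and 8.8 FPKM in Prdx1 C52S and at 10.1, 5.33 and 10.7 FPKM in WT. The Il18bp fold change changed sign with WT 8, from 0.15 to -0.16 on the log2 scale. The receptor chains were scarce. Il18rap had means of 0.0911 against 0.2 FPKM, without overlap (log2 fold change -0.83, SE 0.34, adjusted p = 0.176). Il18r1 had means of 0.0884 against 0.232 FPKM, with TMM-scaled groups that overlapped (log2 fold change -1.05, SE 0.56, adjusted p = 0.273).

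Il33, an alarmin kept in the nucleus of endothelial and epithelial cells, was at 1.39, 0.585 and 1.26 FPKM in Prdx1 C52S and at 1.61, 2.58 and 1.75 FPKM in WT. The groups did not overlap, but the log2 fold change of -0.57 (SE 0.32, adjusted p = 0.301) did not pass, and without Prdx1 C52S 2, the lowest library, it was -0.28. Its receptor Il1rl1 was near the floor, at 0.0107, 0.00516 and 0 FPKM in Prdx1 C52S and 0.0858, 0.143 and 0.0262 FPKM in WT. The fitted Il1rl1 log2 fold change was -3.45 (SE 0.98, adjusted p = 0.106), on 155 estimated counts over the 6 libraries. The IL-36 receptor Il1rl2 was at 0.138, 0.0458 and 0.102 FPKM against 0.238, 0.446 and 0.149 FPKM (-1.18 on the log2 scale, SE 0.50). Il1f9, an older symbol of the ligand IL-36 gamma, overlapped, at 0.17 ± 0.136 against 0.151 ± 0.0207 FPKM.

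The receptor genes Il1r2, Il1r1, Il1rl2, Il1rl1, Il18r1 and Il18rap lie side by side on the plus strand of chromosome 1, from 40074079 to 40551705, a stretch singled out after their values were seen. All 6 had negative log2 fold changes, as did 53.0% of all genes, and 4 had an unadjusted edgeR p under 0.05 (Il1r1, Il1rl1, Il1rl2 and Il18rap), beside 14.8% of all genes that were lower by that threshold. Since the stretch was picked for these values, the counts are a description. Other neighbours differed from each other. Il17re and Il17rc are separated by 668 bases on chromosome 6, and their log2 fold changes were -2.54 and -0.12. Il4ra and Il21r are neighbours on chromosome 7, 23954 bases apart, with -0.09 and -1.41.

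Both chains of the IL-10 receptor were lower together. IL-10 dampens macrophages through Il10ra, its binding chain on leukocytes, and Il10rb, a chain shared with other cytokines. Il10ra was at 2.88, 2.54 and 3.62 FPKM in Prdx1 C52S and at 6.04, 7.42 and 5.06 FPKM in WT. Il10rb was at 3.84, 2.95 and 3.12 FPKM in Prdx1 C52S and at 6.36, 8.5 and 5.16 FPKM in WT. Neither gene overlapped between the groups, and log2 fold changes were -0.73 (SE 0.15, adjusted p = 0.0803) for Il10ra and -0.70 (SE 0.14, adjusted p = 0.0775) for Il10rb. The log2 ratio of Il10ra to Il10rb was -0.14 ± 0.31 in Prdx1 C52S and -0.10 ± 0.09 in WT (exact two-sided permutation p = 0.9). The ligand Il10 was too low to be tested, at 0.0567, 0.0257 and 0.0429 FPKM against 0.247, 0.194 and 0.0742 FPKM. Il22ra1, the receptor chain for IL-22, which acts on hepatocytes, overlapped at 1.74 ± 0.33 against 1.87 ± 0.655 FPKM, with a log2 fold change of 0.17 that was -0.12 with library totals only. Il20rb was at 0.188 ± 0.0195 against 0.243 ± 0.122 FPKM. The annotation places Gm21970 over Il10rb and Gm38070 over Il1r1 on the same strand, so that reads of these pairs may be shared.

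The common gamma chain is the shared receptor chain through which lymphocytes receive survival and growth signals. All 10 tested genes of its family, ligands included, had negative log2 fold changes with all libraries (53.0% of all genes did), and 5 of the 10 were lower at an unadjusted edgeR p under 0.05 (14.8% of all genes were). The sign of 2 of them depended on single libraries: Il4 was at 0.14 without WT 8, and Il15ra ran from -0.24 to 0.20 when 1 library was left out. The common chain Il2rg was at 1.96, 1.79 and 2.24 FPKM in Prdx1 C52S and at 3.61, 4.33 and 2.77 FPKM in WT (log2 fold change -0.53, SE 0.17, adjusted p = 0.122). Il21r, found on B, T and NK cells, was at 0.557, 0.195 and 0.348 FPKM against 0.994, 1.81 and 0.878 FPKM (-1.41 on the log2 scale, SE 0.41, adjusted p = 0.107). Il7r, which sustains T cells and innate lymphoid cells, was at 0.233, 0.162 and 0.363 FPKM against 0.884, 0.67 and 0.514 FPKM (-1.16 on the log2 scale, SE 0.38, adjusted p = 0.125). The groups of these 3 genes did not overlap. Il2rb, the chain shared by IL-2 and IL-15, was at 0.653 ± 0.151 against 1.23 ± 0.405 FPKM, with TMM-scaled groups that overlapped (-0.59 on the log2 scale, SE 0.26). Il2ra was at 0.0499 ± 0.00999 against 0.155 ± 0.161 FPKM, and its log2 fold change of -1.22 rested on WT 8, without which it was -0.13.

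The ligands of this family were low. Il7 was at 0.0871, 0.0315 and 0.0391 FPKM in Prdx1 C52S and 0.126, 0.391 and 0.163 FPKM in WT (log2 fold change -1.75, SE 0.55; -1.26 without WT 8). Il15, which supports NK and memory T cells, was at 0.764, 0.669 and 0.721 FPKM against 1.41, 1.75 and 1.04 FPKM (-0.65 on the log2 scale, SE 0.24). Il15ra, which presents IL-15 to neighbouring cells, was more abundant than its ligand and did not differ beyond the spread, at 6.12 ± 0.69 against 7.51 ± 1.64 FPKM (-0.03 on the log2 scale, SE 0.23). In every library Il15ra exceeded Il15, and the log2 ratio was 3.00 ± 0.24 in Prdx1 C52S and 2.39 ± 0.56 in WT, without overlap (exact two-sided permutation p = 0.1, the smallest that 3 against 3 can give, and 0.467 after Benjamini-Hochberg adjustment over 7 pairs). Il4 was at 0.107 ± 0.0936 against 0.224 ± 0.207 FPKM. Il4ra, the chain through which IL-4 and IL-13 signal, was at 5.18, 4.86 and 5.92 FPKM against 6.71, 7.75 and 6.44 FPKM. The Il4ra groups were apart on the FPKM scale and overlapped after TMM scaling, where the log2 fold change was -0.09 (SE 0.10).

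Il13ra1, which with Il4ra forms the receptor for IL-13 on non-lymphoid cells, was at 9.89, 10.2 and 8.53 FPKM in Prdx1 C52S and 11.3, 16.9 and 14.8 FPKM in WT. The FPKM groups did not overlap, but the TMM-scaled ones did, and the log2 fold change was -0.29 (SE 0.13, adjusted p = 0.212). Its decoy Il13ra2 was detected in Prdx1 C52S 4, WT 6 and WT 9 only, at most at 0.14 FPKM, on 51 estimated counts in all (-1.61 on the log2 scale, SE 1.71). A ratio to Il13ra1 was therefore not computed.

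Receptors of the gp130 family share the signalling chain Il6st, and Il6ra is the chain that binds IL-6. Il6ra was at 2.61, 2.19 and 2.08 FPKM in Prdx1 C52S and at 6.26, 3.42 and 4.33 FPKM in WT, apart in FPKM but overlapping once TMM factors were applied. The Il6ra fold change was -0.77 on the log2 scale (SE 0.27, adjusted p = 0.142), -1.02 with an adjusted p of 0.0263 when WT 8 was left out, and -0.44 when WT 6 was left out. Il6st, which had the highest mean FPKM of all members in both groups, was at 12.5, 13.8 and 11.9 against 17.7, 16.6 and 15.8 FPKM, apart on this scale, and its log2 fold change after TMM scaling was -0.11 (SE 0.14). The log2 ratio of Il6ra to Il6st was -2.45 ± 0.20 in Prdx1 C52S and -1.87 ± 0.38 in WT with overlap (difference -0.58, exact two-sided permutation p = 0.2). The ligand Il6 was barely detected, at 0.0305, 0 and 0.0196 FPKM against 0.047, 0.0187 and 0.0319 FPKM, on at most 10 estimated counts in a library.

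Il11ra1, the IL-11 receptor, was at 6.07 ± 0.0491 against 7.25 ± 1.49 FPKM, apart on this scale and overlapping after TMM scaling (log2 fold change 0.05, SE 0.09). Its gene model overlaps several others, among them Galt on the same strand. The near-identical copy Il11ra2 was at 0.221 ± 0.153 against 0.711 ± 0.258 FPKM (-1.37 on the log2 scale, SE 0.55), and reads of these copies may not have been told apart. Il11 reached at most 0.0437 FPKM.

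**Figure D3:**
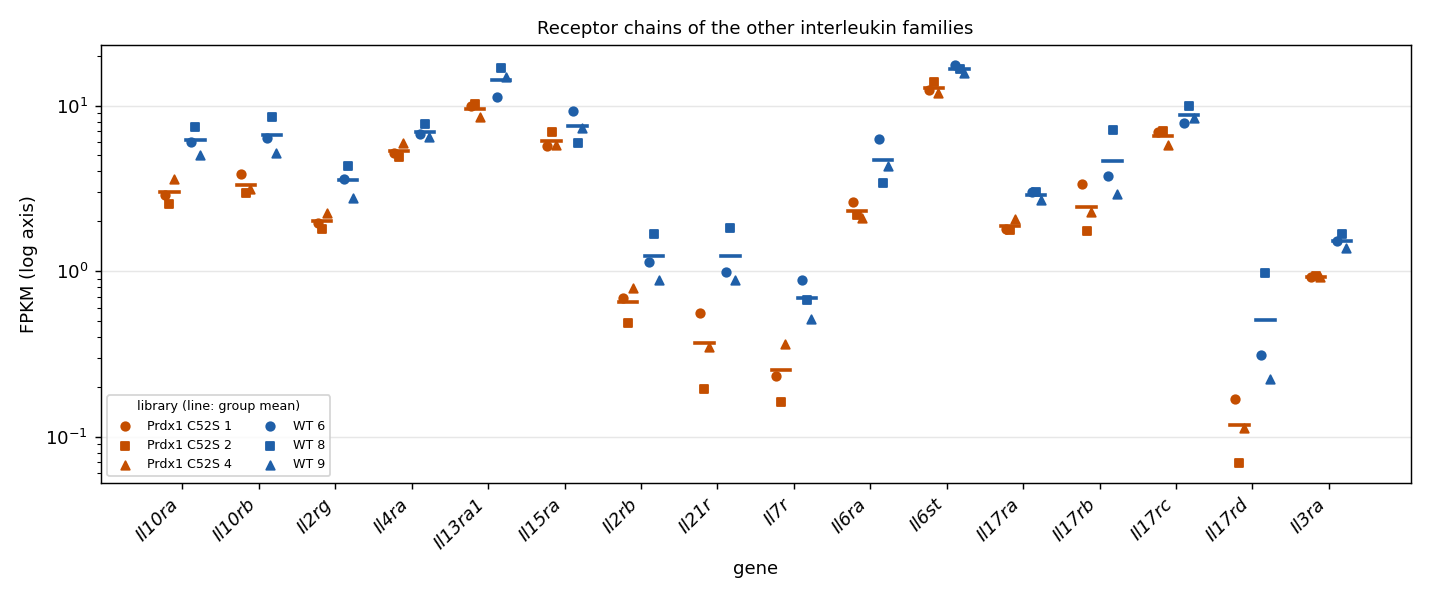
FPKM (y axis, log scale) of 16 receptor genes outside the IL-1 family (x axis) in each library; orange points are Prdx1 C52S, blue points WT, and lines are group means. Il10ra, Il10rb, Il2rg, Il21r, Il7r, Il17ra, Il17rd and Il3ra do not overlap between groups on this scale or after TMM scaling, while Il15ra and Il17rb overlap.

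The IL-17 receptor family spread over a wide range. Il17ra, the chain common to the family, was at 1.8, 1.78 and 2.05 FPKM in Prdx1 C52S and 3, 3.01 and 2.69 FPKM in WT, with tight groups that did not overlap (log2 fold change -0.34, SE 0.11, adjusted p = 0.129). Il17rc, its partner for IL-17A and IL-17F, was at 6.55 ± 0.703 against 8.74 ± 1.03 FPKM (-0.12 on the log2 scale, SE 0.11). Il17rb, the receptor for IL-25, overlapped, with 7.16 FPKM in WT 8 beside 3.75 and 2.94 FPKM in WT 6 and WT 9 and 3.34, 1.75 and 2.26 FPKM in Prdx1 C52S. The Il17rb fold change was -0.58 on the log2 scale (SE 0.30), and -0.26 when WT 8 was left out.

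Il17re, the epithelial receptor for IL-17C, was at 0.176, 0.0238 and 0.115 FPKM in Prdx1 C52S and 0.392, 1.83 and 0.264 FPKM in WT. Il17rd was at 0.168, 0.0695 and 0.113 FPKM against 0.312, 0.975 and 0.222 FPKM. WT 8 was far above the other WT libraries in both genes. Without WT 8 the log2 fold changes were -1.44 in place of -2.54 for Il17re and -1.0 in place of -1.72 for Il17rd. WT 8 is also the library with the high bile duct transcripts, and their part in these values was not tested. The ligands Il17c and Il17d reached at most 0.118 and 0.326 FPKM and were not tested.

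The IL-12 family was low. Il23a was at 0.125, 0.0368 and 0.104 FPKM in Prdx1 C52S and 0.247, 1.02 and 0.0949 FPKM in WT, and its log2 fold change of -1.94 (SE 0.84) was -0.77 without WT 8. Il12b, the subunit common to IL-12 and IL-23, was at 0.193 ± 0.0958 against 0.332 ± 0.176 FPKM, and Il12a was listed at 0 in all Prdx1 C52S libraries and at up to 0.0737 FPKM in WT. Il27 overlapped, at 0.154 ± 0.0976 against 0.143 ± 0.0652 FPKM. Of the receptors, Il27ra was at 0.664, 0.637 and 0.509 against 1.16, 1.57 and 0.757 FPKM without overlap (log2 fold change -0.62, SE 0.26, adjusted p = 0.189). Il12rb2, the IL-12 chain of T and NK cells, was at 0.0188 ± 0.023 against 0.085 ± 0.0398 FPKM, and Il12rb1 at 0.163 ± 0.0135 against 0.188 ± 0.0911 FPKM.

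Il34 and Il16 stand outside these families. Il34, a ligand of the macrophage receptor Csf1r, was at 1.36, 1.63 and 1.84 FPKM in Prdx1 C52S and 2.37, 5.28 and 2.71 FPKM in WT. The groups did not overlap, and the log2 fold change of -0.76 (SE 0.27, adjusted p = 0.137) was -0.46 without WT 8. Il16, a lymphocyte attractant that binds CD4, was at 0.683, 0.464 and 0.618 FPKM against 1.07, 1.49 and 0.798 FPKM (-0.61 on the log2 scale, SE 0.22, adjusted p = 0.139). Il3ra, the IL-3 receptor chain of myeloid cells, was nearly constant in Prdx1 C52S at 0.922, 0.933 and 0.921 FPKM and lay at 1.51, 1.67 and 1.37 FPKM in WT (log2 fold change -0.40, SE 0.18). Il5ra was at 0.0127 ± 0.0219 against 0.0385 ± 0.0115 FPKM, and Il4i1, an amino acid oxidase gene, at 0.0487 ± 0.0321 against 0.0595 ± 0.0232 FPKM. The other genes that did not pass the filter, Il5, Il9r, Il21, Il24, Il31ra and Il1rapl1, stayed at or below 0.151 FPKM in every library.

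Of the 10 ligand, receptor and decoy pairs, 7 had both genes at a mean of at least 0.05 FPKM. Decoy Il1r2 was far below Il1r1 in both groups, with log2 ratios of -5.60 ± 0.87 in Prdx1 C52S and -5.72 ± 0.45 in WT. This Il1r2 ratio depended on the value added before taking logs, and the difference was 0.12 with 0.05 FPKM, -0.86 with 0.01 and 1.10 with 0.5. Il18bp and Il18 were of like level, with log2 ratios of 0.45 ± 0.07 and 0.66 ± 0.67. Il17rc over Il17ra was 1.77 ± 0.27 and 1.57 ± 0.17. The remaining 4 are given above. The exact test cannot go below p = 0.1 in this design, so no difference of ratios could be called.

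**Figure D4:**
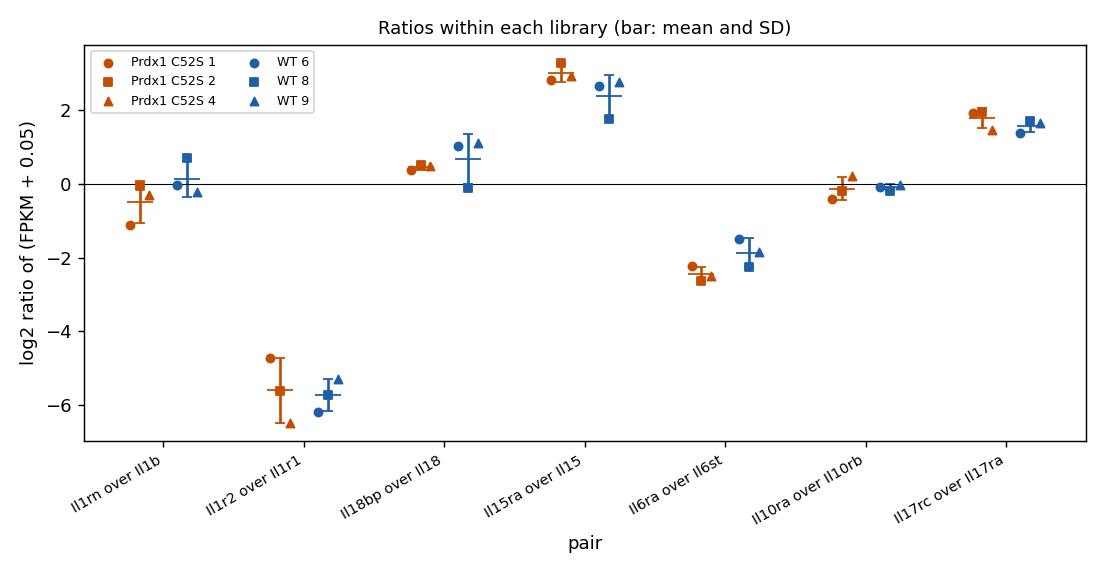
Log2 ratios of (FPKM + 0.05) within each library (y axis) for 7 pairs (x axis); points are libraries, orange for Prdx1 C52S and blue for WT, and bars give the mean and SD. Only Il15ra over Il15 separates the groups, and the WT 8 point lies apart in Il18bp over Il18.

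The single libraries were uneven. Of the 50 tested members, 33 had their highest FPKM in WT 8, as did 59.4% of all genes tested, and 28 their lowest in Prdx1 C52S 2, as did 28.7% of all genes. In TMM-scaled values the median log2 deviation of the members from their own mean was -0.11, -0.35 and -0.14 in libraries 1, 2 and 4 of Prdx1 C52S, whereas WT 6, 8 and 9 had 0.22, 0.31 and 0.10. Leaving out Prdx1 C52S 2 took the members that were lower at an unadjusted edgeR p under 0.05 from 20 to 8, and all genes from 14.8% to 9.02%. Without WT 6 there were 13 such members, beside 12.8% of all genes, and without WT 8 there were 12, beside 11.1%. In all 6 fits without 1 library, 9 members kept an unadjusted p under 0.05. The lower ones were Il1r1, Il1rn, Il1rl1, Il10ra, Il10rb, Il17rd and Il21r, beside 6.59% of all genes, and the higher ones Il1rap and Il18, beside 5.27%.

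Markers of the cell types that can hold these transcripts were summed in each library. For 14 of 14 general macrophage genes the sum was 202 to 245 FPKM in Prdx1 C52S and 475 to 534 FPKM in WT. Most of this sum was Lyz2, at 106 to 126 against 277 to 314 FPKM. Cd68, Adgre1 and Mrc1 had log2 fold changes of -0.39, -0.41 and 0.01 and did not pass. The other 11 of the 14 were lower and 0 higher at an unadjusted edgeR p under 0.05. By that threshold, used for every marker list here, 14.8% of all genes tested were lower and 11.5% higher. Kupffer cell genes, those of the resident liver macrophage, did not share this. Their sums overlapped, with 1 of 8 genes lower (Id3), 0 higher and a median log2 fold change of 0.20. For 15 of 15 T and NK cell genes, Il2rb among them, the sum was 4.06 to 6.09 against 10.7 to 23.9 FPKM, with 9 of 15 lower and 0 higher. For 9 of 9 neutrophil genes it was 5.07 to 24.7 against 26.2 to 34 FPKM, but 2 of 8 tested genes were lower and 0 higher. B and plasma cell genes (8 of 8) overlapped, at 14.5 to 29.3 against 12.7 to 25.2 FPKM. Sinusoidal endothelial genes (9 of 9) were at 63.6 to 73.3 against 41.7 to 86 FPKM, and they overlapped through WT 8 alone (41.7 FPKM). WT 6 and WT 9, at 86 and 85.6 FPKM, were above each Prdx1 C52S library. Of these 9 genes, 2 were lower and 0 higher, with a median log2 fold change of 0.23. Stellate cell genes (10 of 10) summed to 70.4 to 91.8 against 104 to 168 FPKM and were not of 1 direction. Of the 10, 5 were lower, Col1a1 and Lum among them, and Ngfr was higher, with a log2 fold change of 1.05 (SE 0.31), beside 0.67 (SE 0.38) for Lrat and 0.53 (SE 0.36) for Reln. Of 9 genes of mast cells, basophils and eosinophils 6 were listed, at 0.836 to 1.21 against 1.31 to 1.49 FPKM. Only 3 of them were tested, and 0 were lower and 0 higher. No listed marker was at 0 in all libraries. The part of these markers in the interleukin values was not tested.

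Genes that complete these pathways under other names were counted by the same threshold, at which 14.8% of all genes tested were lower and 11.5% higher. Of 16 tested partners (ligands and receptors without Il in their symbol), 7 were lower and 0 higher, with a median log2 fold change of -0.50. Osmr, the oncostatin M receptor, was at 0.489 ± 0.0885 against 1.6 ± 0.807 FPKM (-1.37 on the log2 scale, SE 0.29; -1.05 without WT 8), and Csf1r, which binds IL-34, at 12 ± 0.515 against 20.7 ± 2.09 FPKM (-0.49, SE 0.12). Of 26 JAK, STAT, SOCS and related genes, 9 were lower and 0 higher by that threshold, and the median log2 fold change was -0.13. Socs3, a feedback inhibitor that STAT3 induces, was at 1.69, 1.29 and 1.67 FPKM in Prdx1 C52S and 5.15, 9.08 and 3 FPKM in WT, without overlap (log2 fold change -1.54, SE 0.31, adjusted p = 0.0774; -1.20 without WT 8). Jak3, the kinase bound to the common gamma chain, was at 3.38 ± 0.549 against 6.33 ± 1.1 FPKM (-0.60, SE 0.12), and Stat3 at 6.85 ± 0.657 against 11.2 ± 1.58 FPKM (-0.41, SE 0.12).

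In the MyD88 and IRAK branch 2 of 14 genes were lower and 2 higher, which is close to the shares of all genes (14.8% and 11.5%), and the median log2 fold change was -0.01. Irak3, an inhibitor of this branch, was at 0.4 ± 0.0536 against 1.11 ± 0.262 FPKM (-1.20 on the log2 scale, SE 0.28, adjusted p = 0.0853). The kinase gene Map3k7 had a log2 fold change of 0.32 (SE 0.09) and its adaptor Tab2 of 0.29 (SE 0.11), on nearly equal FPKM in the groups (7.24 against 7.12 for Map3k7, 8.32 against 8.37 for Tab2), and over all alternatives they went down to 0.02 and -0.02. Among 11 tested genes for processing of interleukins, 5 were lower and 1 higher, beside the same shares, with a median of -0.23. The inflammatory caspase gene Casp4 was at 0.503, 0.482 and 0.49 FPKM against 1.15, 3.24 and 1.11 FPKM (-1.52 on the log2 scale, SE 0.36; -1.0 without WT 8), and the peptidase gene Mme at 6.34 ± 0.761 against 5.01 ± 0.846 FPKM (0.62, SE 0.18). With library totals in place of TMM factors, 36 of the 67 genes of these 4 lists were lower and 0 higher, in place of 23 and 3, and 30.4% of all genes were lower and 3.73% higher.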

How the data were processed

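The authors deposited, per the file headers, estimated counts and FPKM for each gene in each library. Named in the submitters' processing notes, without role or order, are StringTie 1.3.4d, HISAT2 2.0.4, cutadapt 1.9, UMI-tools, edgeR and DESeq2, and the build mm9. The deposited coordinates of 26753 of 29734 genes, and of 52 of the 63 members, are identical in GENCODE M21 (GRCm38). Deposited estimated counts are whole and peak at 4 among low values (6204 values, beside 3538 at 3), so that count models treat low genes as more precise than they are.

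Counts were tested with edgeR 4.0.16 (filterByExpr, TMM, robust quasi-likelihood F-test, two-sided, Benjamini-Hochberg over 18931 genes); the SE is the fold change over the root of F. The code was tested on simulated data. Alternatives were DESeq2 1.42.0, limma 3.58.1 on log2 FPKM, other scaling and filters, counts divided by 4, and leaving out each library. Pair ratios added 0.05 FPKM and used exact permutation tests. Fold changes are given for tested members with an unadjusted p under 0.05, a mean of at least 1 FPKM in a group or a place in a pair, and of pathway genes at most 4 a list; other members given with one were chosen after their values were seen. The members, lists and pairs were chosen with earlier results of these data known. Of the 63 members, 13 overlap a gene on the same strand and 24 one on the other strand.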

Additional observations from a re-analysis of the deposited data

How the results depend on the processing

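No paired analysis was possible because the groups share no replicate number. Of the 38 members described with a fold change under the naming rule, 33 kept its sign in all 13 alternatives. The others were Il11ra1 (0.05; -0.27 with library totals, -0.24 and -0.21 in limma with 0.1 and 1 FPKM added), Il18bp (0.15; -0.10, -0.03 and -0.03 likewise, and -0.16 to 0.38 without 1 library), Il22ra1 (0.17; -0.12, -0.06 and -0.05 likewise, and -0.03 to 0.54 without 1 library), Il15ra (-0.03; -0.24 to 0.20 without 1 library) and Il1b (-0.28; -0.70 to 0.07 without 1 library).

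Members past an adjusted p of 0.05 numbered 0 with edgeR and all libraries, 13 with DESeq2, 2 with library totals (Il1r1 and Il1rn), 2 in limma with either added value (the same genes), 1 without the filter and 1 with counts divided by 4 (Il1rn in both), 0 with RLE factors, and 0 to 4 without 1 library. Members lower at an unadjusted p under 0.05 numbered 8 to 24 without 1 library, and those higher 1 with library totals and in limma. Members wholly higher numbered 1 with library totals and in limma, and 3 to 5 without 1 library. The median log2 fold change of the members was -0.62, -0.94 with library totals, -0.35 in limma with 1 FPKM added, and -0.77 to -0.47 without 1 library. The Il1r2 over Il1r1 difference of 0.12 was -0.86 with 0.01 and 1.10 with 0.5 FPKM added. Pathway genes were 36 lower and 0 higher with library totals, and 0 higher in limma. The causes of these shifts were not tested. Depth limits the genes below about 0.1 FPKM, which rest on few fragments.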
